A study of Mus musculus with 12 samples.

Results

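The 41 genes described here copy the genome or prepare cells for S phase. They were taken by name and role from the 18903 genes of the count table, by a rule that uses no measured value but was set with earlier results of these data known, and all 41 were among the 17938 genes that passed the filter on low counts. They comprise 11 genes of origin licensing, with *Mcm10* counted here, and 5 of helicase activation, *Cdc45* and the GINS subunits. A further 6 encode the sliding clamp and its loader, 6 are polymerase and primase subunits and 4 are enzymes of nucleotide supply. The last are 4 genes of single-strand binding and lagging-strand synthesis and 5 genes of S-phase entry and chromatin. The experiment measured mRNA in primary astrocytes grown from mouse brains at postnatal days 1, 6 and 8 (P1, P6 and P8), with 2 biological repeats of each genotype at each day and 12 libraries in all. Mice labelled cKO carried hGFAP-Cre and *Rack7* fl/fl, and mice labelled WT carried hGFAP-Cre and *Rack7* +/+, so Cre was present in both. The human GFAP promoter drives Cre from embryonic life in neural stem cells that give rise to neurons as well as glia, so cells of a culture that do not descend from them keep the gene. Brains were freed of their meninges, and the cells were grown for days after isolation, shaken to remove microglia and oligodendrocytes, and grown on to confluence, so a time point is the age of the animal and not of the culture. The sources used here do not say how many animals or litters a library came from, and p-values measure the spread between these 12 libraries.

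Before a cell copies its DNA, the origin recognition complex with *Cdc6* and *Cdt1* loads the ring of *Mcm2* to *Mcm7* onto origins, and at the start of S phase *Mcm10*, *Cdc45* and the GINS complex turn that ring into a working helicase. Primase and DNA polymerases then copy both strands behind it, with the clamp *Pcna*, loaded by the Rfc complex, holding polymerases on the template, while ribonucleotide reductase, thymidylate synthase and thymidine kinase supply the nucleotides. Many of these genes are transcribed around the start of S phase under E2F factors, and astrocytes still divide in the first weeks after birth and in culture. In a bulk culture, fewer cells in S phase and less RNA of these genes in each cell cannot be told apart.

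The promoter windows of 6 members are shown, of 4 genes that differed at P8 and hold a match to the E2F motif and of 2 that differed strongly and hold none. They are RefSeq sequences of GRCm38.p6, 5′ to 3′ on the strand of the gene, from 250 bases before the annotated start to 50 after it. Capitals mark matches to TTTCCCGC, TTTCGCGC, TTTGCCGC or TTTGGCGC on either strand.
Mcm6 (chr1:128359656-128359955, minus strand): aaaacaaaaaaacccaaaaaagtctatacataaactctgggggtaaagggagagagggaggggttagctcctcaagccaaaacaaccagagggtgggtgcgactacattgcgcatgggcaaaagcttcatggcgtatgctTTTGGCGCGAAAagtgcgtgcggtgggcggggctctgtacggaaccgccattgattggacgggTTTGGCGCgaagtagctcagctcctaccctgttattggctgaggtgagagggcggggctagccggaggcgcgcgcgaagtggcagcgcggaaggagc
Mcm3 (chr1:20820263-20820562, minus strand): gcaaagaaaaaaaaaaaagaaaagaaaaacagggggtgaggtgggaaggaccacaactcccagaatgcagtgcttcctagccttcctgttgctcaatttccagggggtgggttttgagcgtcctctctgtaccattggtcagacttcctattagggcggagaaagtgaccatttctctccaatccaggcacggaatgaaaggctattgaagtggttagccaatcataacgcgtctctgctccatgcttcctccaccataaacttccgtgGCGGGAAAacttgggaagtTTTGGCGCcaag
Mcm5 (chr8:75109259-75109558, plus strand): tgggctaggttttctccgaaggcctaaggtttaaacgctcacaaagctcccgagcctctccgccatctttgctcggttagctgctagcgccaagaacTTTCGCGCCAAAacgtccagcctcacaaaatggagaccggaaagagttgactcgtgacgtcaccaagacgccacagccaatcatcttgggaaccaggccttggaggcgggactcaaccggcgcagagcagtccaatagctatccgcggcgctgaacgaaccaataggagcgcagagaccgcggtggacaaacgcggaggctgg
Cdt1 (chr8:122567765-122568064, plus strand): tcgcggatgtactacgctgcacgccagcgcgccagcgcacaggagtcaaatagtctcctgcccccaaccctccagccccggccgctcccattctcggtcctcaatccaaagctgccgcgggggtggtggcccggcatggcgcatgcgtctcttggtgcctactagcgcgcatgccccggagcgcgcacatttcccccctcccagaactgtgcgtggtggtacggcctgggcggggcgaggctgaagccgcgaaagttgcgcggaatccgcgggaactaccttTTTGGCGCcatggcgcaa
Pcna (chr2:132253131-132253430, minus strand): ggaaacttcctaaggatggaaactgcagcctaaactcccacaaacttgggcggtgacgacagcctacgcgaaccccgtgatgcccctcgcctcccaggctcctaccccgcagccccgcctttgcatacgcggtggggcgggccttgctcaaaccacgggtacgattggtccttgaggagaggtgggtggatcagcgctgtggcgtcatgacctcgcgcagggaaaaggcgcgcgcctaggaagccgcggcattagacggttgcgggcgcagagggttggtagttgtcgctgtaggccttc
Rrm1 (chr7:102441445-102441744, plus strand): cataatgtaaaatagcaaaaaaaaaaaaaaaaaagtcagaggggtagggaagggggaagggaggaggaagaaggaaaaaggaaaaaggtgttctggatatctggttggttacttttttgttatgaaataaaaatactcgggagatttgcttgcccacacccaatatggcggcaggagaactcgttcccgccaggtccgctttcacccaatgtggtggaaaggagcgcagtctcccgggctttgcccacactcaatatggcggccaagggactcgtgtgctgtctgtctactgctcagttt
In *Mcm6* and *Mcm5* the matches lie before the start, with 2 of the 3 in *Mcm6* and both in *Mcm5* overlapping as a mirrored pair, and in *Mcm3* and *Cdt1* they lie after it. Windows were found for 33 of the 41 members, 38 windows in all, since some genes have several starts. A match was present in 13 of the 38 windows (34.2%), against 2.265% of all 32851 windows in the table and 3.56% of the windows of genes tested. CCAAT on either strand was in 60.5% of the members' windows, against 37.4% of all windows and 37.55% of those of genes tested. GGGCGG, the GC box, was in 73.7%, against 35.7% and 59.0%, and TTTGAA, the core of the CHR element of many mitotic genes, in 13.2%, against 17.9% and 12.2%. The median GC content of the members' windows was 60.7%, against 52.7% over all windows and 60% for the genes tested. A match describes the letters only, and binding was not measured here.

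Library totals lay between 54413504 and 89183250 counts. *Zmynd8*, which encodes RACK7, was at 114 and 116 CPM with the label WT and 242 and 230.5 CPM with the label cKO at P6, and was higher with the label cKO at all 3 time points (log2 fold change 0.65, 1.04 and 0.70). The conditional allele removes a pair of exons of the gene, which a whole-gene count does not resolve, so libraries are named by their labels. The paper checked RACK7 protein in WT and cKO primary astrocytes by immunoblot. It also reported far fewer sites of RACK7 on chromatin in cKO astrocytes than in WT ones. Astrocyte markers were found in every library, at a summed level of 2486 to 2540.4 CPM in the libraries labelled P1 WT and of 754 to 765 CPM in those labelled P8 cKO. Microglia, fibroblast, mural, endothelial, neuronal, oligodendrocyte, ependymal and stem-cell markers were found too. None of those analysed was at 0 in all libraries, and markers not analysed are outside this count. Of the listed neuronal markers 3 of 7 were analysed and of the endothelial ones 4 of 6, since the others have no entry in the authors' counts. Later counts cover those analysed. Levels of several lists are given beside each comparison.

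Levels of these genes are compared with each other per kilobase of annotated exon, as CPM per kb (CPM are counts per 1000000 counts of the library, scaled by TMM) averaged over the 6 groups. *Pcna* was the most abundant member at 51.6, followed by *Rrm2*, the small subunit of ribonucleotide reductase, at 22.9 and *Mcm6* at 20.5. The other subunits of the helicase ring lay between 7.12 for *Mcm2* and 18.6 for *Mcm4*. The initiator subunit *Orc1*, at 1.32, and *Mcm10*, at 1.49, were the lowest. Of the 41 members, 12 share exon bases with another gene of the table on the opposite strand. For *Fen1* that share was 84.2% of its exon length and for *Gins2* 67.3%, and since no strand setting of the counting was stated, their counts may include reads of *Tmem258* or *Gm10143* and of *Gse1*. Among members with a call between the labels, the share was 15.1% for *Rfc2*, 8.70% for *Mcm7*, 5.79% for *Lig1* and 1.597% for *Tk1*. The members lie on 14 chromosomes. In GRCm38, *Mcm6* is ENSMUSG00000026355, chromosome 1, 128331590 to 128359664, *Pcna* is ENSMUSG00000027342, chromosome 2, 132249162 to 132253314 and *Rrm1* is ENSMUSG00000030978, chromosome 7, 102441695 to 102469771.

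Summed over the 41 members, the level was 1629.6 to 1643 CPM in the P1 libraries labelled WT, 1536 to 1548 at P6 and 1123 to 1162 at P8. With the label cKO it was 1501 to 1541 CPM at P1, 1323 to 1379 at P6 and 1278 to 1288 at P8. The summed level was thus lower with the label cKO at P1 and P6 and higher at P8, without overlap of the labels. How often such an order occurs over all genes was not counted. Abundant members weigh most in this sum. At P6 the nucleotide supply genes summed to 305 and 314 CPM with the label WT and 211 and 199 CPM with the label cKO. Those of single-strand binding and the lagging strand ran the other way, at 151 and 171 CPM with the label WT and 245 and 225 CPM with the label cKO. The lowest of the 6 group means was that of P8 WT for 23 of the 41 members, against 22.7% of all genes tested, and the highest was that of P1 WT for 22 members, against 17.7% of all genes.

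**Figure D1:**
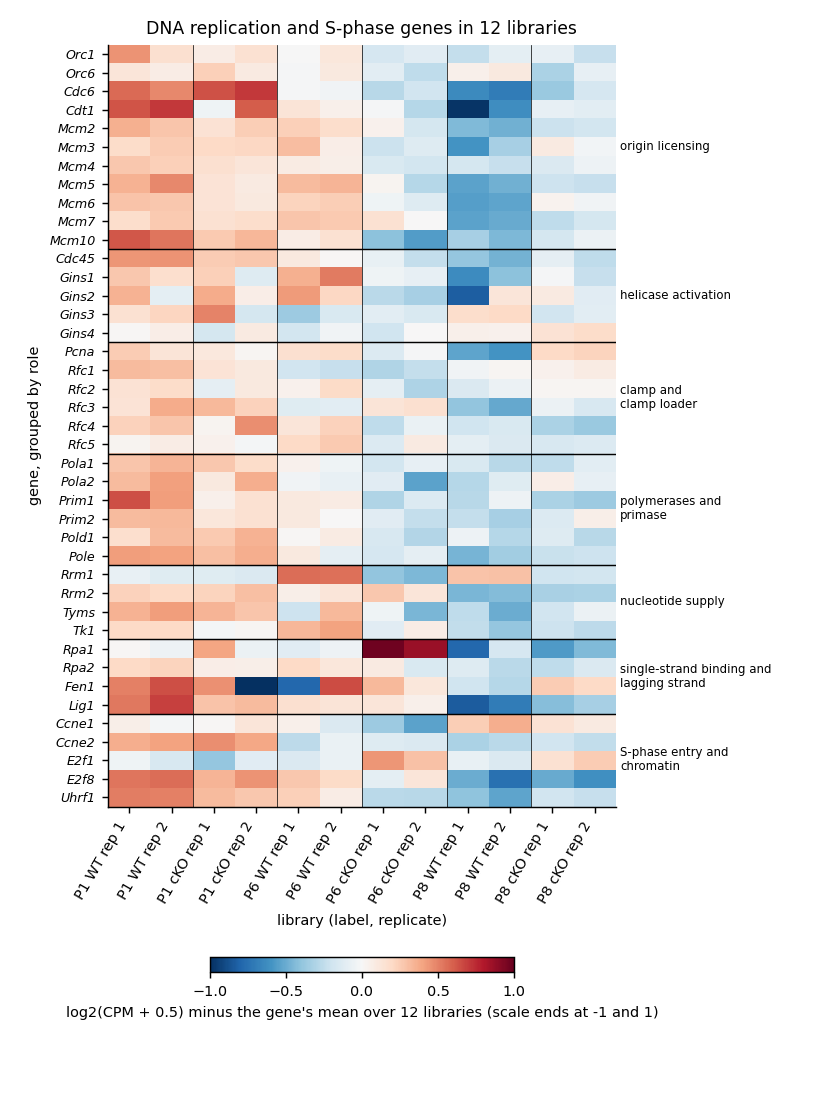
Level of each of the 41 genes in each of the 12 libraries, as log2(CPM + 0.5) minus the mean of that gene over the 12 libraries, with rows grouped by role and red above and blue below the mean. The P1 libraries are mostly red, the 2 libraries labelled P8 WT are the bluest block for the licensing genes, and Rrm1 and Rpa1 run against their neighbours at P6.

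At P1 few of the genes differed between the labels. Of the 41 members, 2 fell and 0 rose with the label cKO (adjusted p below 0.05 in edgeR), while 2.94% of all genes tested fell and 6.54% rose, so the share that fell was near that of all genes. The level of *Lig1*, the ligase that seals Okazaki fragments, was 58.9 and 65.8 CPM with the label WT and 49.8 and 51.0 CPM with the label cKO (log2 fold change -0.31, SE 0.078, adjusted p = 0.0391). The level of *Rfc1*, the large subunit of the clamp loader, was 81.8 and 80.8 CPM with the label WT and 71.9 and 69.9 CPM with the label cKO (log2 fold change -0.20, SE 0.052, adjusted p = 0.0481). In both genes the libraries labelled cKO lay below those labelled WT without overlap. Here and below, such an order describes the printed values and adds no support to a call. Its share over all genes was not counted. The median log2 fold change of the members was -0.12, against 0.00 over all genes, and 30 of the 41 were negative. By unadjusted p below 0.05 in edgeR, 7 members fell and 0 rose, while of all 17938 genes tested 1628 fell and 2270 rose. In DESeq2 with adjusted p 6 members fell. For this and every other fit named below, the share of all genes called was not counted. A number of members from such a fit therefore describes no change particular to them. Among the members without a call, *Prim1*, the catalytic subunit of primase, had 19.3 and 16.4 CPM with the label WT and 12.6 and 13.6 CPM with the label cKO (log2 fold change -0.45, SE 0.12, adjusted p = 0.0520). *Fen1*, the flap nuclease of the lagging strand, was at 26.1 and 28.9 CPM with the label WT and 25.3 and 4.58 CPM with the label cKO, and its 1 low library, P1 cKO replicate 2, gave the widest error of all members (SE 0.65). The number that fell was 0 without P1 WT replicate 2, P1 cKO replicate 2, either P6 WT or either P8 cKO library, and 1 without P1 WT replicate 1, P1 cKO replicate 1 or P8 WT replicate 2, so neither call held in every fit. Fibroblast markers moved at P1 too (6 of 6 rose, summed level 397 to 410.4 CPM with the label WT and 2481 to 2507 CPM with the label cKO), as did microglia markers (7 of 10 fell, 4483 to 4536 CPM with the label WT and 3727 to 3767 CPM with the label cKO). Endothelial markers (2 of 4 rose, 0 fell) summed to 23.8 to 25.6 CPM with the label WT and 47.6 to 50.2 CPM with the label cKO, and mural markers (2 of 4 rose, 0 fell) to 1725 to 1730.0 CPM with the label WT and 2569 to 2575 CPM with the label cKO. The part of these lists in the result was not tested.

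At P6 a part of the set was lower with the label cKO, among it most of the helicase ring, the clamp and *Rrm1*. Of the 41 members, 12 fell and 2 rose, against 12.5% and 13.2% of all genes tested, and 33 of the 41 were negative, with a median log2 fold change of -0.24 against 0.00 for all genes. The number of licensing genes that fell was 6 of 11, with none of the 11 positive, 2 of 6 in the clamp and its loader, 2 of 4 in nucleotide supply and 2 of 5 in S-phase entry and chromatin. None of the 5 genes counted under helicase activation, *Cdc45* and the GINS subunits, passed the test. *Mcm10*, counted with the licensing genes, acts at that step too and fell. No polymerase or primase subunit passed the test either, although all 6 were negative.

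The ring of the replicative helicase was lower in most of its subunits at P6. Most of these calls needed the spread estimated with the other days. In edgeR on the P6 groups alone, adjusted p was 0.124 for *Mcm2*, 0.0682 for *Mcm3*, 0.0716 for *Mcm4* and 0.0556 for *Mcm5*. Only the call of *Mcm6* was kept among the ring subunits in that fit. *Mcm6* was at 109.7 and 112 CPM with the label WT and 91.3 and 85.7 CPM with the label cKO (log2 fold change -0.32, SE 0.050, adjusted p = 0.00129). *Mcm5* was at 53.0 and 53.9 CPM with the label WT and 43.5 and 34.9 CPM with the label cKO (log2 fold change -0.45, SE 0.098, adjusted p = 0.00856). *Mcm3* was at 66.7 and 56.4 CPM with the label WT and 46.2 and 49.1 CPM with the label cKO (log2 fold change -0.37, SE 0.11, adjusted p = 0.0300). In these 3 subunits both libraries labelled cKO lay below both labelled WT. *Mcm2* was at 57.6 and 55.2 CPM with the label WT and 50.2 and 43.0 CPM with the label cKO (log2 fold change -0.27, SE 0.081, adjusted p = 0.0339). *Mcm4* was at 70.4 and 69.0 CPM with the label WT and 59.7 and 58.3 CPM with the label cKO (log2 fold change -0.24, SE 0.056, adjusted p = 0.0115). *Mcm7*, the subunit of the ring without a call, was at 58.7 and 58.1 CPM with the label WT and 53.7 and 48.6 CPM with the label cKO (log2 fold change -0.19, SE 0.067, adjusted p = 0.0665), also without overlap of the labels. *Mcm10*, which helps the ring to open the duplex, had the lowest log2 fold change of the licensing genes, at 11.7 and 12.4 CPM with the label WT and 8.22 and 7.39 CPM with the label cKO (log2 fold change -0.62, SE 0.10, adjusted p = 0.00170). The 2 loading factors did not pass the test, with log2 fold changes of -0.22 for *Cdc6* and -0.24 for *Cdt1*.

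Nucleotide supply held the steepest fall at P6. *Rrm1*, the large subunit of ribonucleotide reductase, was at 205 and 204 CPM with the label WT and 105 and 101 CPM with the label cKO (log2 fold change -0.98, SE 0.040, adjusted p = 2.90e-07). Its libraries labelled WT stood above all 10 others in the series. The small subunit *Rrm2*, which is the one that rises and falls with the cell cycle, was at 64.9 and 67.7 CPM with the label WT and 75.0 and 67.7 CPM with the label cKO (log2 fold change 0.11, SE 0.063, adjusted p = 0.269), and its lower library labelled cKO was level with the higher one labelled WT. *Tk1*, the thymidine kinase of S phase, was at 23.1 and 24.4 CPM with the label WT and 16.8 and 19.3 CPM with the label cKO (log2 fold change -0.39, SE 0.093, adjusted p = 0.0130). *Tyms*, thymidylate synthase, had overlapping labels, with log2 fold change -0.33, SE 0.19, adjusted p = 0.261.

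The clamp *Pcna* was at 136 and 138 CPM with the label WT and 111 and 121 CPM with the label cKO at P6 (log2 fold change -0.25, SE 0.063, adjusted p = 0.0179). *Rfc2*, a small subunit of its loader with 15.1% of its exon length shared with *Lat2*, was at 39.5 and 43.9 CPM with the label WT and 36.0 and 30.9 CPM with the label cKO (log2 fold change -0.32, SE 0.097, adjusted p = 0.0394). *Uhrf1*, which brings the maintenance DNA methyltransferase to newly copied DNA, was at 52.9 and 47.3 CPM with the label WT and 37.1 and 36.9 CPM with the label cKO (log2 fold change -0.44, SE 0.073, adjusted p = 0.00192). *Ccne1*, the cyclin E that drives entry into S phase, was at 16.1 and 14.1 CPM with the label WT and 12.001 and 10.6 CPM with the label cKO (log2 fold change -0.42, SE 0.11, adjusted p = 0.0170), while its paralogue *Ccne2* was at 19.4 and 22.3 CPM with the label WT and 21.3 and 21.0 CPM with the label cKO, with overlapping labels. In each of the 4 genes with a call, both libraries labelled cKO were the lower ones, which adds no support to those calls.

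Only *Rpa1* and *E2f1* rose among the members at P6. *Rpa1*, the large subunit of the protein that coats single-stranded DNA, was at 74.9 and 78.1 CPM with the label WT and 159 and 147 CPM with the label cKO (log2 fold change 1.00, SE 0.19, adjusted p = 0.00435). Its partner *Rpa2* was at 20.2 and 19.0 CPM with the label WT and 18.7 and 15.7 CPM with the label cKO (log2 fold change -0.18, SE 0.10, adjusted p = 0.244). *E2f1*, a transcription factor that activates S-phase genes, was at 30.5 and 32.3 CPM with the label WT and 46.1 and 41.6 CPM with the label cKO (log2 fold change 0.48, SE 0.10, adjusted p = 0.00825). The P6 libraries labelled cKO held the highest values of *Rpa1* and of *E2f1* in the whole series.

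The calls of *Mcm6*, *Mcm10*, *Rrm1*, *Rpa1* and *Uhrf1* at P6 held in all 17 other fits, 12 of them with a library left out, while the other 9 were lost in at least 1. The number that fell was 7 without P6 WT replicate 1 (*Mcm2*, *Mcm3*, *Mcm4*, *Pcna* and *Ccne1* lost), and *E2f1* lost its call without that library or P6 cKO replicate 1, which left 1 member higher. Beside the members, fibroblast markers were lower with the label cKO (5 of 6 fell, summed level 6509.6 to 6564 CPM with the label WT and 2455 to 2637 CPM with the label cKO) and stem-cell markers differed (3 of 5 rose and 1 fell, 1251 to 1278 CPM with the label WT and 2256 to 2281 CPM with the label cKO). Endothelial markers (3 of 4 fell, 0 rose) summed to 120.0 to 124 CPM with the label WT and 58.5 to 62.5 CPM with the label cKO, and neuronal markers (2 of 3 rose, 0 fell) to 116 to 125 CPM with the label WT and 232 to 249 CPM with the label cKO. Astrocyte markers were at 1671 to 1856 CPM with the label WT and 1506 to 1654 CPM with the label cKO, with 1 of 10 that rose and 3 that fell, and microglia markers at 3078 to 3232 CPM with the label WT and 3493 to 3597 CPM with the label cKO, with 2 of 10 each way. The part of these lists in the result was not tested.

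**Figure D2:**
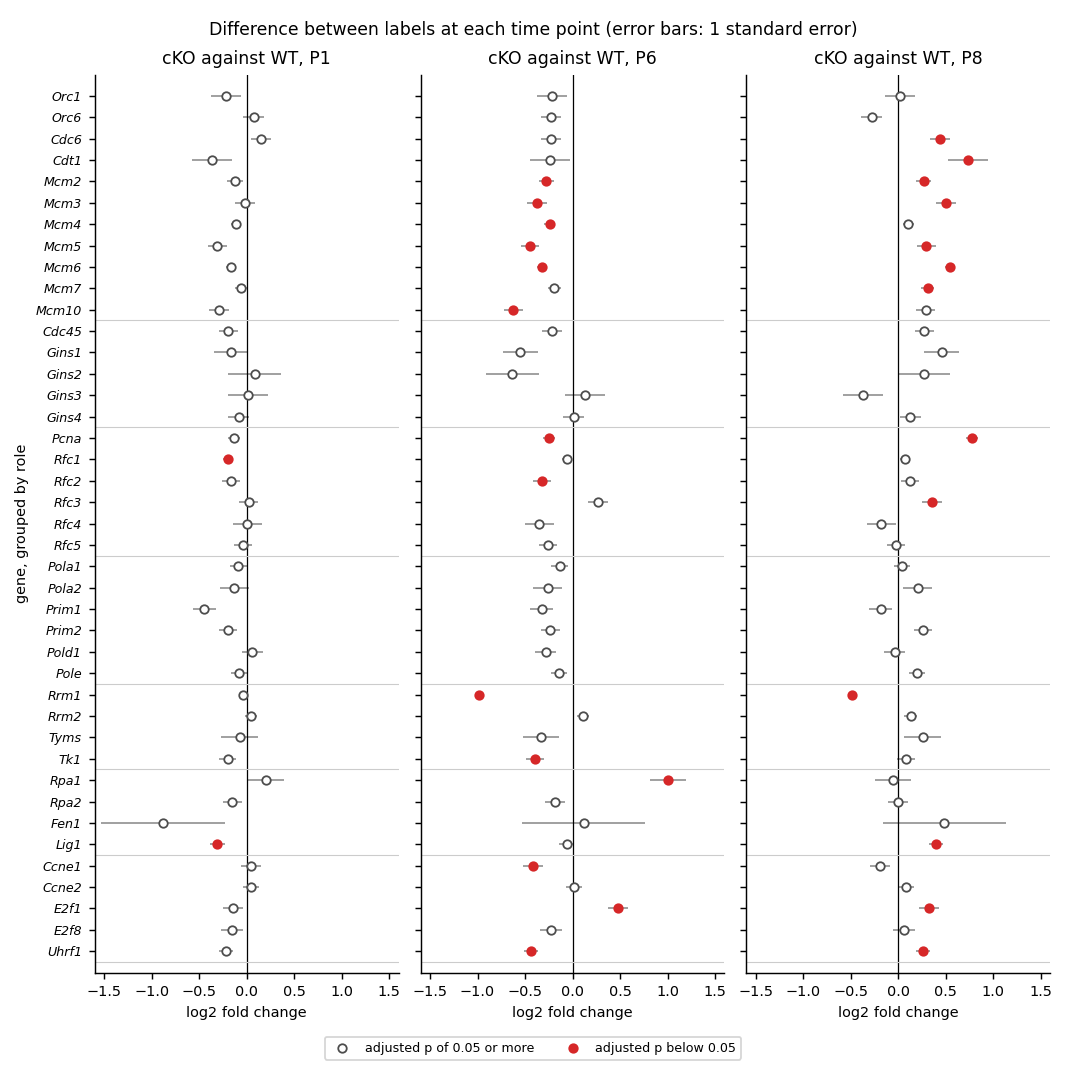
Log2 fold change of the libraries labelled cKO against those labelled WT for each of the 41 genes at P1, P6 and P8, with bars of 1 standard error and filled points for an adjusted p below 0.05 in edgeR. Filled points lie mostly left of zero at P6 (12 of 14) and right of zero at P8 (12 of 13).

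At P8 most differences ran the other way, and the loading factors, most of the helicase ring and the clamp were higher with the label cKO. Of the 41 members, 12 rose and 1 fell, against 19.6% and 14.8% of all genes tested. The share that rose was 7 of 11 among the licensing genes, 2 of 6 in the clamp and its loader, 1 of 4 in lagging-strand synthesis and 2 of 5 in S-phase entry and chromatin. The median log2 fold change of the members was 0.19, against 0.01 over all genes, and 31 of the 41 were positive. No gene of helicase activation and no polymerase or primase subunit was called at P8.

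*Pcna* rose most, at 84.5 and 80.3 CPM with the label WT and 139.9 and 142 CPM with the label cKO (log2 fold change 0.77, SE 0.063, adjusted p = 1.43e-05). Both P8 libraries labelled WT were below every other library of the series in *Pcna*, and those labelled cKO were within the range of the P1 libraries. *Cdt1*, the loading factor, was at 5.99 and 7.84 CPM with the label WT and 11.6 and 11.4 CPM with the label cKO (log2 fold change 0.73, SE 0.21, adjusted p = 0.0260). Its partner *Cdc6* was at 6.16 and 5.87 CPM with the label WT and 7.52 and 8.73 CPM with the label cKO (log2 fold change 0.43, SE 0.10, adjusted p = 0.0107). The labels did not overlap in either loading factor.

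Within the helicase ring at P8, *Mcm6* was at 64.2 and 65.3 CPM with the label WT and 96.2 and 91.9 CPM with the label cKO (log2 fold change 0.54, SE 0.050, adjusted p = 3.30e-05). *Mcm3* was at 35.3 and 42.5 CPM with the label WT and 57.4 and 52.9 CPM with the label cKO (log2 fold change 0.50, SE 0.11, adjusted p = 0.00522). *Mcm7* was at 33.3 and 34.0 CPM with the label WT and 40.4 and 42.8 CPM with the label cKO (log2 fold change 0.31, SE 0.067, adjusted p = 0.00635). These 3 subunits rose with both libraries labelled cKO above both labelled WT. *Mcm5* was at 29.3 and 30.3 CPM with the label WT and 36.7 and 36.3 CPM with the label cKO (log2 fold change 0.29, SE 0.098, adjusted p = 0.0454). *Mcm2* was at 35.7 and 34.8 CPM with the label WT and 41.8 and 42.8 CPM with the label cKO (log2 fold change 0.26, SE 0.081, adjusted p = 0.0314). *Mcm4*, at 58.7 and 56.4 CPM with the label WT and 59.8 and 64.1 CPM with the label cKO (log2 fold change 0.11, SE 0.055, adjusted p = 0.181), was the subunit that did not pass the test at P8. The origin recognition genes had no call, with log2 fold changes of 0.01 for *Orc1* and -0.28 for *Orc6*.

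The ligase *Lig1* was at 22.7 and 24.9 CPM with the label WT and 30.3 and 32.3 CPM with the label cKO (log2 fold change 0.40, SE 0.078, adjusted p = 0.00370). *Rfc3*, a small subunit of the clamp loader, was at 10.4 and 9.61 CPM with the label WT and 13.3 and 12.4 CPM with the label cKO (log2 fold change 0.36, SE 0.10, adjusted p = 0.0262). *E2f1* was at 32.0 and 30.5 CPM with the label WT and 37.5 and 40.5 CPM with the label cKO (log2 fold change 0.32, SE 0.10, adjusted p = 0.0422), and *Uhrf1* was at 33.9 and 30.9 CPM with the label WT and 39.2 and 38.1 CPM with the label cKO (log2 fold change 0.26, SE 0.073, adjusted p = 0.0235). In all 4 of these genes the libraries labelled cKO were the higher ones. *Rrm1* alone fell, at 169.6 and 170.0 CPM with the label WT and 121 and 122 CPM with the label cKO (log2 fold change -0.48, SE 0.040, adjusted p = 1.47e-05), without overlap. *Rrm2* was at 45.3 and 45.8 CPM with the label WT and 49.7 and 49.8 CPM with the label cKO and had no call. *Gins2* was at 13.9 and 27.2 CPM with the label WT and 26.6 and 23.1 CPM with the label cKO, so its 2 libraries labelled WT differed from each other by more than the labels did.

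Calls of *Mcm3*, *Mcm6*, *Pcna*, *Rrm1* and *Lig1* at P8 held in all 17 other fits. The number that rose was 7 without P8 WT replicate 1, 7 without P8 WT replicate 2, 6 without P8 cKO replicate 1 and 4 without P8 cKO replicate 2 (where 2 fell), with the calls of *Cdc6*, *Cdt1*, *Mcm2*, *Mcm5*, *Mcm7*, *Rfc3*, *E2f1* and *Uhrf1* lost in at least 1 of these. Markers of other cell types differed between the labels at P8 as well. Microglia markers were higher (8 of 10 rose and 1 fell, summed level 3022 to 3164 CPM with the label WT and 6244 to 6292 CPM with the label cKO), fibroblast markers lower (6 of 6 fell, 25629.8 to 25743 CPM with the label WT and 8149 to 8399.7 CPM with the label cKO) and astrocyte markers lower (8 of 10 fell and 1 rose, 1739 to 2130.3 CPM with the label WT and 754 to 765 CPM with the label cKO). Of the stem-cell markers 3 of 5 rose and 1 fell, with a median log2 fold change of 1.35, while their summed level ran the other way, at 1087 to 1106 CPM with the label WT and 692 to 699 CPM with the label cKO. Endothelial markers (2 of 4 fell, 1 rose) summed to 148 to 161 CPM with the label WT and 36.9 to 39.9 CPM with the label cKO, and neuronal markers (3 of 3 rose) to 65.2 to 68.5 CPM with the label WT and 176 to 178 CPM with the label cKO. The part of these lists in the result was not tested.

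**Figure D3:**
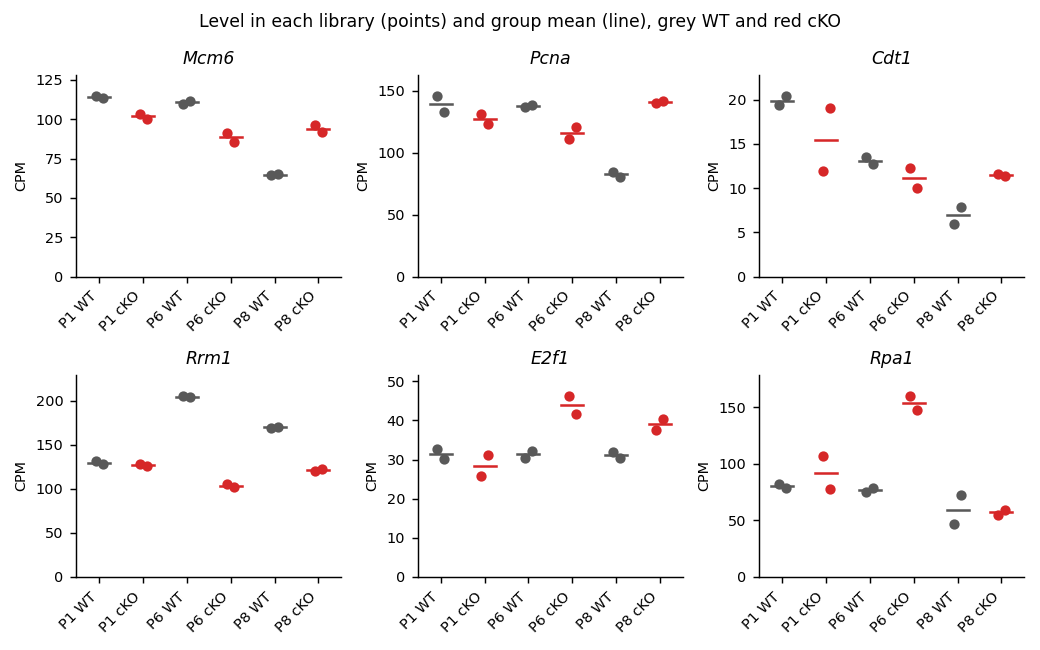
CPM of Mcm6, Pcna, Cdt1, Rrm1, E2f1 and Rpa1 in each library (points) and the mean of each group (lines), grey for the label WT and red for the label cKO, each axis starting at 0. Mcm6, Pcna and Cdt1 reach their lowest group mean in P8 WT, Rrm1 its highest in P6 WT and Rpa1 its highest in P6 cKO.

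The difference between the labels itself changed between the days, as tested by the interaction of label and day. Between P6 and P8 it became more positive for 18 members and more negative for 1, against 12.6% and 8.83% of all genes, and the median change was 0.37 on the log2 scale against 0.01 over all genes. Of the licensing genes 9 of 11 were among the 18, namely *Cdc6*, *Cdt1*, *Mcm2*, *Mcm3*, *Mcm4*, *Mcm5*, *Mcm6*, *Mcm7* and *Mcm10*. The change was 1.02, SE 0.089, adjusted p = 4.90e-05 for *Pcna*, 0.86, SE 0.071, adjusted p = 3.38e-05 for *Mcm6* and 0.91, SE 0.14, adjusted p = 0.00182 for *Mcm10*. *Gins1*, a subunit of the GINS complex, had no call at either day but changed by 1.00, SE 0.26, adjusted p = 0.0215. Its level was 6.22 and 7.04 CPM with the label WT and 4.60 and 4.47 CPM with the label cKO at P6 and 2.89 and 3.45 CPM with the label WT and 4.72 and 3.98 CPM with the label cKO at P8, so the order of the labels was opposite at the 2 days. The 1 member that moved the other way was *Rpa1*, with -1.06, SE 0.27, adjusted p = 0.0218. Its P8 libraries labelled WT, at 46.7 and 72.0 CPM, lay on both sides of those labelled cKO, at 54.6 and 59.5 CPM, and this call was lost without either P6 WT library, P6 cKO replicate 1, P8 WT replicate 2 or either P8 cKO library. A call at both days in opposite directions, lower at P6 and higher at P8, was found for 6 members, *Mcm2*, *Mcm3*, *Mcm5*, *Mcm6*, *Pcna* and *Uhrf1*, against 2.37% of all genes. They are 6 of the 12 that fell at P6 and 6 of the 12 that rose at P8. Among these 6, only *Mcm6* kept its calls at both days in all the other fits. The call of *Mcm5* was lost in 1 other fit at P6 and in 12 at P8, and that of *Mcm2* in 8 and 4. Those of *Mcm3* and *Pcna* at P6 and of *Uhrf1* at P8 were each lost in 4. *Rrm1* was lower at both days, a pattern of 5.73% of all genes. *E2f1* was higher at both, a pattern of 7.18%, and 0 members were higher at P6 and lower at P8, a pattern of 1.11%.

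Between P1 and P6 the difference changed for *Rrm1* (more negative, -0.95, SE 0.056, adjusted p = 4.59e-06) and *E2f1* (more positive, 0.63, SE 0.15, adjusted p = 0.0201), 1 member each way, against 8.19% and 7.12% of all genes. The call of *E2f1* was lost in each fit that left out replicate 1 of P1 WT, P1 cKO, P6 WT or P6 cKO, and 2 members were more positive in the fits without P1 cKO replicate 1 or either P8 WT library. Between P1 and P8 it became more positive for 14 members and more negative for 1, *Rrm1*, against 14.0% and 11.7% of all genes. The largest positive change was in *Cdt1*, the loading factor (1.09, SE 0.30, adjusted p = 0.0254), followed by *Pcna* (0.90, SE 0.089, adjusted p = 7.31e-05). The number more positive was 6 on leaving out P1 WT replicate 1, P1 WT replicate 2 or P8 WT replicate 1, 7 on leaving out P1 cKO replicate 1 or P8 cKO replicate 2, and 8 on leaving out P8 WT replicate 2 or P8 cKO replicate 1, while 2 were more negative on leaving out P1 cKO replicate 2. The 3 interactions share libraries and are not independent of each other or of the comparisons above.

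Within the label WT, more members fell than rose in both steps of age. From P1 to P6, 14 members fell and 1 rose, against 19.2% and 20.7% of all genes, and from P6 to P8, 23 fell and 2 rose, against 19.0% and 16.2%. *Mcm6* went from 115 and 113 CPM at P1 to 109.7 and 112 at P6 and 64.2 and 65.3 at P8 (log2 fold change from P6 to P8 -0.77, SE 0.050, adjusted p = 3.57e-06). All 6 ring subunits fell from P6 to P8, from -0.28 on the log2 scale for *Mcm4* to -0.84 for *Mcm5*, whereas from P1 to P6 1 of the 6, *Mcm4*, fell. Of the polymerase and primase genes 4 of 6 fell from P1 to P6 (*Pola1*, *Prim1*, *Prim2* and *Pole*) and 2 of 6 (*Prim2* and *Pole*) from P6 to P8, with all 6 negative in both steps and medians of -0.36 and -0.24 on the log2 scale. The first-step call of *Prim2* was lost in 13 of the 17 other fits, that of *Prim1* in 3 and that of *Pola1* in 2. *Lig1* went from 58.9 and 65.8 CPM at P1 to 45.7 and 44.6 at P6 and 22.7 and 24.9 at P8, and fell in both steps. *E2f8*, a repressor among the E2F factors, went from 19.7 and 18.6 CPM at P6 to 11.4 and 9.46 at P8 (log2 fold change -0.88, SE 0.12, adjusted p = 3.94e-04). *Rrm1* ran against the rest in the first step and rose from 132 and 128 CPM to 205 and 204 (log2 fold change 0.65, SE 0.040, adjusted p = 1.47e-06). From P6 to P8 the clamp loader subunit *Rfc1* and *Ccne1* rose, by 0.20 and 0.36 on the log2 scale. The number that fell from P1 to P6 was 9 without P1 WT replicate 2, 9 without P6 WT replicate 1 and 8 without P6 WT replicate 2. Of the 2 that rose from P6 to P8 neither held without P6 WT replicate 2 or without P8 WT replicate 2. In these libraries fibroblast markers summed to 397 to 410.4 CPM at P1, 6509.6 to 6564 at P6 and 25629.8 to 25743 at P8, endothelial markers to 23.8 to 25.6 CPM at P1, 120.0 to 124 at P6 and 148 to 161 at P8, microglia markers to 4483 to 4536 CPM at P1, 3078 to 3232 at P6 and 3022 to 3164 at P8 and astrocyte markers to 2486 to 2540.4 CPM at P1, 1671 to 1856 at P6 and 1739 to 2130.3 at P8. Their part in the steps was not tested.

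Within the label cKO, more members fell than rose in the first step but not in the second. From P1 to P6, 21 members fell and 2 rose, against 18.7% and 19.7% of all genes, and from P6 to P8, 5 fell and 5 rose, against 19.2% and 20.0%. *Cdc6* went from 15.6 and 16.4 CPM at P1 to 8.03 and 8.54 at P6 and 7.52 and 8.73 at P8 (log2 fold change from P1 to P6 -0.95, SE 0.10, adjusted p = 9.78e-05). *Mcm10* went from 13.4 and 14.1 CPM to 8.22 and 7.39 and then 9.78 and 10.6, a fall in the first step (-0.82, SE 0.10, adjusted p = 2.11e-04) and a rise in the second (0.38, SE 0.10, adjusted p = 0.0142). *Pcna*, *Rfc1*, *Rrm1* and *Ccne1* also rose from P6 to P8, and *Mcm7*, *Rrm2*, *Rpa1*, *Lig1* and *E2f8* fell. *Rpa1* made the largest step, from 159 and 147 CPM at P6 to 54.6 and 59.5 at P8 (log2 fold change -1.43, SE 0.19, adjusted p = 3.12e-04). The number that fell from P1 to P6 was 13 without P6 cKO replicate 2, and 1 member rose without P1 cKO replicate 2 or without P6 cKO replicate 1. In these libraries fibroblast markers summed to 2481 to 2507 CPM at P1, 2455 to 2637 at P6 and 8149 to 8399.7 at P8 (6 of 6 rose from P6 to P8), astrocyte markers to 2349.7 to 2399.9 CPM at P1, 1506 to 1654 at P6 and 754 to 765 at P8 (8 of 10 fell from P6 to P8), stem-cell markers to 1249 to 1268 CPM at P1, 2256 to 2281 at P6 and 692 to 699 at P8 and microglia markers to 3727 to 3767 CPM at P1, 3493 to 3597 at P6 and 6244 to 6292 at P8 (8 of 10 rose from P6 to P8). Their part in the steps was not tested.

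The promoter windows were set beside these calls as a description. A gene was counted as holding a match if any of its windows did, so more bases were searched for genes with several windows. *Lig1*, *Mcm7* and *Uhrf1* have several windows, of which only some held a match. *Fen1*, without a call at P8, has several too, and none held a match. Among the 12 members that rose at P8, all with a window, 9 held a match to the E2F motif (*Cdc6*, *Cdt1*, *Mcm3*, *Mcm5*, *Mcm6*, *Mcm7*, *Rfc3*, *Lig1* and *Uhrf1*), and among the 20 with a window and no call at P8, 4 did (*Orc1*, *Gins3*, *Pola1* and *Pold1*). *Pcna*, which rose, and *Rrm1*, which fell, were printed above without capitals and held none. At P6, 4 of the 10 members that fell and have a window held a match. The median log2 fold change at P8 was 0.31 for the 13 members with a match, ranging from -0.37 to 0.73, and 0.08 for the 20 without, ranging from -0.48 to 0.77, so the ranges overlapped over most of their length. At P6 the medians were -0.22 and -0.25.

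Other genes of the cell cycle were counted from lists that hold none of the members, where the share of all genes tested that rose was 6.54% on day P1 and that which fell 2.94%, on day P6 13.2% rose and 12.5% fell, and on day P8 19.6% rose and 14.8% fell. Of 40 other replication genes, 3 fell and 1 rose at P1, 9 fell and 2 rose at P6, and 2 fell and 7 rose at P8. Their median log2 fold change was -0.11, -0.22 and 0.01, and at P8 20 of the 40 were positive and 20 negative. Of 20 mitosis genes, 4 fell at P1, 16 at P6 and 5 at P8, and none rose at any day. The median log2 fold change of the mitosis genes was -0.29, -0.52 and -0.16 at the 3 days. *Aurkb*, a kinase of mitosis, was at 18.9 and 17.0 CPM with the label WT and 9.31 and 9.52 CPM with the label cKO at P6 (log2 fold change -0.93, SE 0.14, adjusted p = 0.00108). *Mki67*, which marks dividing cells, was at 275 and 239.8 CPM with the label WT and 153 and 171 CPM with the label cKO at P6 (log2 fold change -0.66, SE 0.072, adjusted p = 1.42e-04). At P8 the labels in *Mki67* were close, at 155 and 162 CPM with the label WT and 149 and 153 CPM with the label cKO (log2 fold change -0.07, SE 0.071, adjusted p = 0.503). The histone chaperone gene *Asf1b* had the largest called fall of these lists at P1 (16.4 and 19.4 CPM with the label WT and 13.1 and 12.6 CPM with the label cKO, log2 fold change -0.48, SE 0.11, adjusted p = 0.0301).

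Against the same shares over all genes, of 15 further nucleotide enzymes 1 rose and 0 fell at P1, 3 each way changed at P6, and 4 rose and 3 fell at P8. *Tk2*, the mitochondrial thymidine kinase, was at 12.8 and 11.2 CPM with the label WT and 27.9 and 27.4 CPM with the label cKO at P6 (log2 fold change 1.20, SE 0.20, adjusted p = 0.00194). *Dck*, deoxycytidine kinase, was at 57.4 and 47.5 CPM with the label WT and 93.4 and 91.5 CPM with the label cKO at P8 (log2 fold change 0.82, SE 0.11, adjusted p = 3.68e-04). Of 11 further E2F and RB family genes, 1 fell at P1, 4 fell and 1 rose at P6, and 3 rose at P8. Of 7 CDK inhibitors, which hold cells before S phase, 1 each way changed at P1, 2 fell at P6, and 4 fell and 1 rose at P8. *Cdkn2a* was at 4.91 and 3.23 CPM with the label WT and 8.48 and 6.99 CPM with the label cKO at P1 (log2 fold change 0.93, SE 0.21, adjusted p = 0.0258). *Cdkn1c* was at 5.82 and 5.83 CPM with the label WT and 0.668 and 1.14 CPM with the label cKO at P8 (log2 fold change -2.68, SE 0.34, adjusted p = 2.60e-04).

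Set against P1 WT, the median log2 ratio of group means over the 41 members was -0.12 in P1 cKO, -0.18 in P6 WT, -0.43 in P6 cKO, -0.67 in P8 WT and -0.44 in P8 cKO. The mitosis genes took another path, with 0.36 in P6 WT, -0.09 in P6 cKO, -0.18 in P8 WT and -0.25 in P8 cKO. The 40 other replication genes lay at -0.36 in P8 WT and -0.33 in P8 cKO, closer together than the members.

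**Figure D4:**
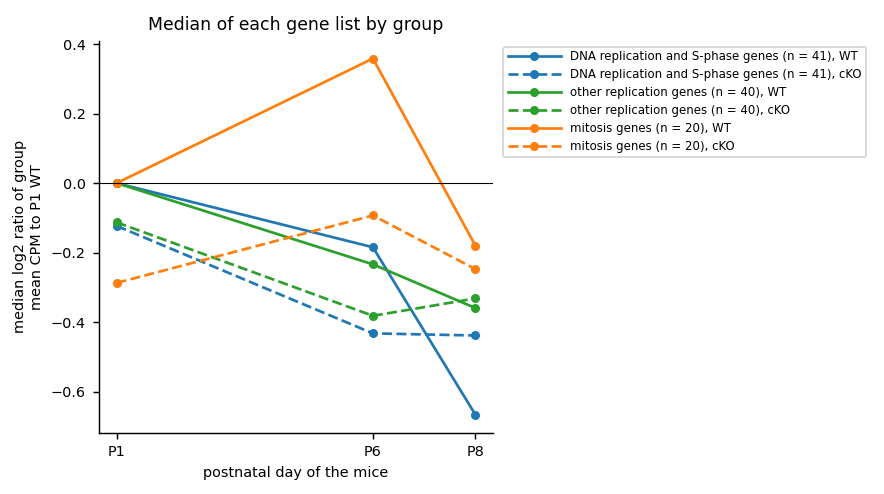
Median log2 ratio of group mean CPM to P1 WT against the postnatal day, for the 41 DNA replication and S-phase genes, the 40 other replication genes and the 20 mitosis genes, with solid lines for the label WT and dashed lines for the label cKO. The members' lines cross between P6 and P8, where the label WT drops to -0.67 and the label cKO stays at -0.44.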

How the data were processed

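mRNA from 12 cultures was captured and sequenced, and according to the study's methods reads were mapped to GRCm38 with Hisat2 (HISAT2 and mm10 in the submitters' processing notes). The authors deposited whole-number read counts for 18903 genes, not normalized; how they were counted, on which annotation and with which strand setting, was not stated. They were tested with edgeR 4.0.16 under R 4.3.3 (TMM, filterByExpr, quasi-likelihood test with 1 mean for each of 6 groups and all 12 libraries, Benjamini-Hochberg over the 17938 genes tested). A gene rose or fell at an adjusted p below 0.05, with no condition on fold change. The study's methods name ballgown and DESeq2 with a cut-off on p and a fold change of 1.5, which was used as an alternative. CPM are counts per 1000000 of the TMM-scaled library size. SE is the log2 fold change divided by the square root of F. An exact permutation test of 2 libraries against 2 cannot give a two-sided p below 0.333, so none was used. Library totals were 54413504 to 89183250, and the common biological coefficient of variation was 0.178.

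The members and lists were chosen with earlier results of these data known, so no list was tested as a set. Every member could be named; values in each library were fixed for *Mcm2* to *Mcm7* and for up to 3 rises and 3 falls at each day, and given for other members where they help. Of the other lists, the 2 largest changes at each day and *Mki67* were named. Of the listed cell type markers, 12 were not analysed because no gene of that name is in the authors' counts. Among them are *Rbfox3* and *Snap25* of neurons and *Cldn5* and *Pecam1* of endothelial cells. Analysed were 3 of 7 neuronal, 4 of 6 endothelial, 4 of 6 mural and 3 of 5 ependymal and choroid plexus markers. Of the oligodendrocyte markers 7 of 8 were analysed and of the stem-cell markers 5 of 6. Gene positions, exon lengths and overlaps came from GENCODE vM21 of GRCm38 and promoter windows from RefSeq GRCm38.p6. Alternatives were a block for the replicate number, DESeq2 1.42.0, its size factors, edgeR without the filter, edgeR on the compared groups alone, 2 stricter call rules with a fold change of 1.5, and each of the 12 libraries left out, where the lone library of a group takes the spread of the other groups. The fit was tested on simulated data with known changes.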

Additional observations from a re-analysis of the deposited data

Results flagged for a closer look

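The difference between the labels was found to change between days, by the interaction of label and day in edgeR (adjusted p below 0.05), for the members listed here, and chance flags some of so many comparisons. From P6 to P8 the 18 positive changes on the log2 scale were 0.66 for *Cdc6*, 0.97 for *Cdt1*, 0.54 for *Mcm2*, 0.87 for *Mcm3*, 0.35 for *Mcm4*, 0.74 for *Mcm5*, 0.86 for *Mcm6*, 0.50 for *Mcm7*, 0.91 for *Mcm10*, 0.49 for *Cdc45*, 1.00 for *Gins1*, 1.02 for *Pcna*, 0.44 for *Rfc2*, 0.49 for *Prim2*, 0.50 for *Rrm1*, 0.48 for *Tk1*, 0.46 for *Lig1* and 0.69 for *Uhrf1*. The 1 negative change was -1.06 for *Rpa1*. Of these 19 calls, 10 held in all 17 other fits (*Cdc6*, *Mcm2*, *Mcm3*, *Mcm5*, *Mcm6*, *Mcm7*, *Mcm10*, *Pcna*, *Rrm1* and *Uhrf1*), and those of *Cdt1*, *Cdc45* and *Rfc2* were each lost in 12. The positive value of *Rrm1* was a fall that became smaller, from -0.98 at P6 to -0.48 at P8, and not a change of direction.

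From P1 to P6 the 1 negative change was -0.95 for *Rrm1* and the 1 positive change was 0.63 for *E2f1*. From P1 to P8 the 14 positive changes were 1.09 for *Cdt1*, 0.39 for *Mcm2*, 0.52 for *Mcm3*, 0.60 for *Mcm5*, 0.70 for *Mcm6*, 0.36 for *Mcm7*, 0.58 for *Mcm10*, 0.47 for *Cdc45*, 0.90 for *Pcna*, 0.27 for *Rfc1*, 0.46 for *Prim2*, 0.70 for *Lig1*, 0.46 for *E2f1* and 0.47 for *Uhrf1*, and the 1 negative change was -0.45 for *Rrm1*. Of these 15 calls, 6 held in all 17 other fits (*Mcm5*, *Mcm6*, *Pcna*, *Rrm1*, *Lig1* and *Uhrf1*), and that of *E2f1* was lost in 15.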

How the results depend on the processing

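Over all 10 comparisons the members gave 138 calls, of which 72 held in all 17 other fits and 66 were lost in at least 1, and no direction was reversed. The share of all genes called was not counted in the other fits of this section, so a move in the number of members is not particular to them. Members lower at P1 numbered 1 with DESeq2's size factors, 1 with no filter on low counts, 6 in DESeq2 and 0 with the compared groups alone. In DESeq2, 2 members were lower at P8, and the change from P1 to P6 was more positive for 2 and more negative for 2. With the compared groups alone, 5 were lower at P6, 2 changed more positively from P1 to P6, 0 rose in WT from P6 to P8, and 13 fell in cKO from P1 to P6. With a fold change of at least 1.5 and adjusted p the numbers fell to 0 lower at P1, 1 higher and 2 lower at P6, 2 higher and 0 lower at P8, 1 lower in WT from P1 to P6, 0 higher and 13 lower from P6 to P8, 2 lower in cKO from P1 to P6, and 0 higher and 2 lower from P6 to P8. The unadjusted p with that fold change gave the same numbers apart from 3 lower at P6. Most changes of the members were thus smaller than 1.5-fold. With that fold change and adjusted p, 719 of the 17938 genes tested were higher and 160 lower at P1. At P6, 1284 were higher and 1144 lower, and at P8, 2012 were higher and 1502 lower. In WT, 2197 were higher and 1953 lower from P1 to P6, and 1554 and 1843 from P6 to P8. In cKO the numbers were 1978 and 1864, then 2127 and 2185.

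The replicate numbers did not mark pairs: over 15 pairs of groups the deviations of like-numbered libraries correlated at -0.06 to 0.04. In the fit with a block for replicate number, 1 member was lower at P1, 11 were lower at P6 and 10 higher at P8, and no other count moved by over 1.5 times.

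Leaving out each library in turn gave 0 higher and 0 to 3 lower at P1, 1 to 2 higher and 7 to 13 lower at P6, and 4 to 12 higher and 1 to 2 lower at P8. The interaction gave 0 to 2 more positive and 1 more negative from P1 to P6, 12 to 17 and 0 to 1 from P6 to P8, and 6 to 13 and 1 to 2 from P1 to P8. In WT, 1 rose and 8 to 15 fell from P1 to P6, and 0 to 3 rose and 20 to 24 fell from P6 to P8. In cKO, 1 to 3 rose and 13 to 21 fell from P1 to P6, and 4 to 7 rose and 4 to 7 fell from P6 to P8. Shares over all genes were not counted in these fits either. The cause of these moves was not tested, beyond the smaller number of libraries in each fit.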
